A study of Mus musculus with 8 samples.

Results

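Ogt and 6 further genes of the O-GlcNAc pathway were followed in mouse testis with and without CTCFL. They were taken from the array table by gene symbol, with every probe set of each gene, which gave 28 of the 45101 probe sets and 7 of the 22666 gene symbols of the table. These comprised 5 probe sets of Ogt, 6 of Mgea5 (the older symbol of Oga), 6 of Gfpt1, 4 of Gnpnat1, 5 of Uap1 and 1 each of Gfpt2 and Pgm3. The Uap1 probe sets carry a joint symbol with a predicted locus, LOC640502, in the annotation. Ogt was chosen by this same comparison of mutant with wildtype testis, because its probe set 1436780_at was among the few whose groups did not overlap and that differed by 0.5 or more in log2 level. All levels of Ogt are therefore given as a description, without a test. The other 6 genes were listed for their part in the pathway.

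O-GlcNAc is a sugar, N-acetylglucosamine, that is attached to serine and threonine residues of nuclear and cytoplasmic proteins, where it comes and goes much as phosphate does. OGT adds it, OGA (Mgea5) removes it, and the donor UDP-GlcNAc is made by the hexosamine pathway, which starts from glucose and glutamine. GFPT1 and GFPT2 catalyse the first and rate-limiting step of that pathway, and GNPNAT1, PGM3 and UAP1 catalyse the later steps in this order. Ogt lies on the X chromosome, whose genes are silenced in male germ cells during meiosis.

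Affymetrix Mouse430_2 arrays were used to profile total RNA of testes taken at postnatal day 23. The labels give 5 wildtype samples, numbered 1, 2, 4, 6 and 7, and 3 CTCFL mutant samples, numbered 3, 5 and 8, each with an array of its own. CTCFL, or BORIS, is the testis-specific paralog of CTCF, and the comparison asks which testis transcripts depend on it before the mutant testis degenerates. Per the study's methods the mutant allele was made by Cre recombination in the mouse, lacks Ctcfl exons 1 to 8 and is not limited to a cell type, and the mice were kept on a C57/Bl6 background. The study's text calls the mutant animals homozygous for this allele and the control animals their heterozygous littermates. The labels call the controls wildtype, which is the name kept here. Ctcfl itself was not analysed here, so no value of the targeted gene checks the labels. Whether each array came from an animal of its own is not given, and errors and p-values measure the spread between these samples.

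Wildtype 7 and mutant 8 stood apart from the other 6 arrays whatever their genotype. Their scores on the leading principal component (44.9% of the variance) were 40.2 and 38.2, where the other 6 arrays had scores of -24.8 to -3.10. Their mean log2 level over 10 spermatid markers was 11.3 and 10.8, against 8.67 to 9.44 on the others. Over 5 fat cell genes it was 7.48 and 7.46, against 5.47 to 6.25. Adipoq, Cfd and Car3 carried that rise, while Lep and Pparg lay within the range of the other 6 arrays. The main differences of the O-GlcNAc genes and the medians of the pathway lists are therefore also given without wildtype 7 and mutant 8. Markers of spermatocytes (7 of 7), spermatids (10 of 10) and Sertoli cells (8 of 8) lay above the median level of all probe sets, as did 4 of 5 Leydig cell genes, so the label testis was borne out. In a whole-tissue RNA, fewer cells of a type and less RNA per cell cannot be told apart.

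Ogt RNA was higher on average in mutant testis with each of its 5 probe sets, but only the probe set by which it was chosen separated the groups. On 1436780_at the log2 level was 6.67, 6.67, 6.60, 6.68 and 6.42 on wildtype arrays 1, 2, 4, 6 and 7, and 6.93, 7.37 and 7.13 on mutant arrays 3, 5 and 8. The lowest mutant array lay above the highest wildtype array. Wildtype arrays averaged 6.61 ± 0.11 (SD, n = 5) and mutant arrays 7.14 ± 0.22 (SD, n = 3), a difference of 0.54 (SE 0.11) or 1.45-fold. Of all probe sets, 1216 (2.70%) had groups that did not overlap, 624 (1.38%) with the mutant higher and 592 (1.31%) with it lower. Since the choice of Ogt used this property, nothing further is read from its place among them.

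Only 8 of the non-overlapping probe sets reached a log2 difference of 0.5 in size, 4 of them upward. Ogt, at 0.54, and Bcas2, at -0.52, lay just inside that threshold. Just outside it lay Ccnb3, at 0.50 (below the threshold before rounding), and an unnamed probe set, 1439685_at, also at 0.50. The largest difference was that of Zcchc11 (Tut4), at -0.97.

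The other 4 Ogt probe sets gave smaller differences. The brightest of them, 1460631_at, serves as the main probe set of the gene, because its ID carries no suffix for shared probes and its mean level was the highest. Its log2 level was 8.43, 8.71, 8.31, 8.57 and 8.95 on the wildtype arrays in the same order, and 8.56, 9.06 and 8.72 on the mutant arrays. Wildtype 7 exceeded 2 of the 3 mutant arrays, and the groups overlapped. The means were 8.59 ± 0.25 (SD, n = 5) and 8.78 ± 0.25 (SD, n = 3), a difference of 0.19 (SE 0.15) or 1.14-fold, which is smaller than the SD within either group.

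Probe set 1425517_s_at read 7.46, 7.50, 7.22, 7.46 and 7.71 in wildtype and 7.43, 8.02 and 7.62 in mutant testis, with a difference of 0.22 (SE 0.14). Probe set 1425516_at read 6.79, 7.01, 6.82, 6.80 and 7.04 against 6.93, 7.43 and 6.86, with a difference of 0.19 (SE 0.13). Probe set 1451738_at read 7.24, 7.42, 7.22, 7.38 and 7.62 against 7.26, 7.66 and 7.49, with a difference of 0.094 (SE 0.11). On all 3 the groups overlapped, and mutant 5 was the highest of the 8 arrays, as it was on 1460631_at and on 1436780_at. The plot of the Ogt probe sets shows this, with mutant 5 at the top of every panel.

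**Figure D1:**
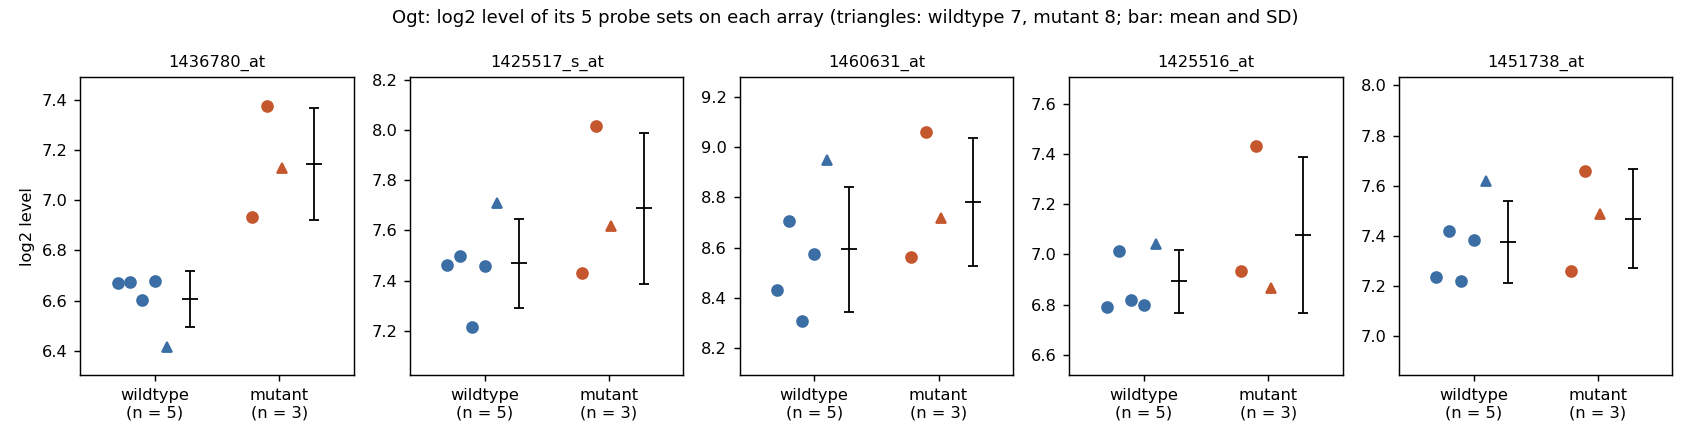
Log2 level of the 5 Ogt probe sets (1 panel each, vertical axes of equal length) on each of the 5 wildtype arrays (blue) and 3 mutant arrays (orange), with triangles for wildtype 7 and mutant 8 and bars for the mean and SD of each group. The groups are apart on 1436780_at only, where wildtype 7 is the lowest array at 6.42, whereas on the other 4 probe sets wildtype 7 is the highest wildtype array.

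The differences on the 4 overlapping Ogt probe sets were smaller without mutant 5. They were then 0.048 on 1460631_at, 0.055 on 1425517_s_at, 0.0073 on 1425516_at and -0.00085 on 1451738_at. On 1436780_at it was 0.42 without mutant 5 and 0.64 without mutant 3, the lowest and the highest value when any array was left out. Wildtype 7 divided the Ogt probe sets in another way. Its departure from the mean of the other 4 wildtype arrays was -0.24 on 1436780_at and 0.19 to 0.44 on the other 4 probe sets.

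With wildtype 7 and mutant 8 both left out, the 4 remaining wildtype and 2 remaining mutant arrays gave differences that were closer to each other. They were 0.50 on 1436780_at, 0.31 on 1460631_at, 0.32 on 1425517_s_at, 0.33 on 1425516_at and 0.15 on 1451738_at. Between the pair itself, mutant 8 minus wildtype 7 was 0.71 on 1436780_at but -0.23, -0.093, -0.18 and -0.13 on the other 4 in the same order. The pair thus ran in opposite directions on the probe set that led the comparison and on the rest of the gene. On 1436780_at that sign was fixed by the choice of a probe set whose groups did not overlap, with the mutant higher. Only the signs on the other 4 could vary. With the pair as a block of its own, a fit that compares the genotypes within the pair and within the other 6 arrays, the difference was 0.56 (SE 0.10) on 1436780_at and 0.16 (SE 0.14) on 1460631_at.

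The agreement of the Ogt probe sets with each other followed the same division. Across the 8 arrays, Pearson's r lay between 0.76 and 0.97 in the 6 pairings of the other 4 probe sets, and between 0.35 and 0.59 for 1436780_at against each of them. Without wildtype 7 and mutant 8 (n = 6), these ranges were 0.90 to 0.97 and 0.79 to 0.92. Within the 5 wildtype arrays, too few for a value, r was positive in all 6 of those pairings and negative for 1436780_at against all 4 others. The negative sign leans on wildtype 7, at 6.42 against 6.60 to 6.68 on 1436780_at and the highest wildtype array on the other 4. Without wildtype 7, r within the wildtype arrays was not computed. The ranges over 8 and 6 arrays mix the genotypes by whose difference 1436780_at was chosen. Such r describe arrays that share their hybridisation and cell composition, and they carry no test. The deposited annotation gives an Ensembl gene ID for the other 4 probe sets and none for 1436780_at, which it ties to Ogt by symbol and Entrez ID. Where the probe sets lie along the transcript was not analysed here. Mean levels below the median of all probe sets are called dim in what follows.

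Mgea5, which codes for the enzyme that removes O-GlcNAc, gave no separation by genotype. Its main probe set 1422900_at read 10.50, 10.55, 10.49, 10.59 and 10.62 in wildtype and 10.36, 10.65 and 10.73 in mutant testis. The mutant arrays lay on both sides of all wildtype arrays. The means were 10.55 ± 0.06 (SD, n = 5) and 10.58 ± 0.19 (SD, n = 3), and the difference was 0.034 (95% interval -0.16 to 0.23, limma adjusted p = 1.0). It was -0.022 without wildtype 7 and mutant 8. All 6 Mgea5 probe sets lay above the median level, and their differences ran from -0.027 on 1433654_at to 0.080 on 1437129_at, with 5 of 6 higher in the mutant mean, among them 1439081_at at 0.048.

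Of the genes for the first step of UDP-GlcNAc synthesis, Gfpt1 and Gfpt2 gave differences of opposite sign with their main probe sets. Gfpt2, measured by 1418753_at alone, read 7.44, 7.48, 7.34, 7.41 and 7.46 in wildtype and 7.61, 7.55 and 7.64 in mutant testis. All 3 mutant arrays lay above all 5 wildtype arrays. The means were 7.42 ± 0.06 (SD, n = 5) and 7.60 ± 0.05 (SD, n = 3), a difference of 0.17 (SE 0.063, 95% interval 0.033 to 0.31) or 1.13-fold. Gfpt2 was the only main probe set of the other 6 genes whose groups did not overlap. Its limma p was 0.0206 before and 1.0 after adjustment over all 45101 probe sets, so it did not pass the test. The difference was 0.16 on the 6 arrays without wildtype 7 and mutant 8, 0.18 within that pair and 0.15 to 0.20 when any array was left out.

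Gfpt1 was measured by 6 probe sets, of which 1428715_at and 1449268_at lay above the median level. The main one, 1428715_at, read 10.55, 10.43, 10.28, 10.26 and 10.39 in wildtype and 10.28, 10.23 and 10.17 in mutant testis. The mutant arrays lay at the lower end but overlapped the wildtype range. The means were 10.38 ± 0.12 (SD, n = 5) and 10.23 ± 0.06 (SD, n = 3), a difference of -0.16 (95% interval -0.34 to 0.023, limma adjusted p = 1.0). On 1449268_at the difference was 0.033 (95% interval -0.16 to 0.23). Without wildtype 7 and mutant 8 the differences were -0.12 on 1428715_at and -0.0017 on 1449268_at. The opposite sign of the latter rested on mutant 8. With that array alone left out the difference on 1449268_at was -0.040, the lowest when any array was left out. Among the 4 dim ones, 1418904_at had no overlap, with 4.24 to 4.40 in wildtype and 4.45 to 4.52 in mutant testis, a difference of 0.14 (SE 0.067, limma adjusted p = 1.0). The other 3 dim ones, 1420080_a_at, 1449725_at and 1444329_at, differed by 0.019, 0.021 and 0.052.

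None of the later enzymes passed the test or separated the groups on any probe set. Gnpnat1, the acetyltransferase, read 8.82, 8.65, 8.39, 8.71 and 8.59 in wildtype and 8.59, 8.71 and 8.64 in mutant testis with its main probe set 1423158_at. The mutant arrays lay within the wildtype range, and the difference was 0.011 (95% interval -0.20 to 0.22, limma adjusted p = 1.0), and 0.0056 without wildtype 7 and mutant 8. Its second probe set above the median level, 1423156_at, gave -0.085 (95% interval -0.26 to 0.085), and its 2 dim probe sets, 1457807_at and 1423157_at, gave 0.10 and 0.0031.

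Pgm3, the phosphomutase, read 7.32, 7.50, 7.21, 7.47 and 7.73 in wildtype and 7.61, 7.63 and 7.48 in mutant testis with its only probe set, 1428228_at. Wildtype 7 was the highest array, above all mutant arrays. The difference was 0.13 (95% interval -0.12 to 0.38, limma adjusted p = 1.0). It was 0.25 on the 6 arrays without wildtype 7 and mutant 8 and -0.25 within that pair, the same change of sign as on the main Ogt probe set.

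Uap1, the pyrophosphorylase that makes UDP-GlcNAc, read 8.58, 8.49, 8.39, 8.36 and 8.62 in wildtype and 8.46, 8.26 and 8.65 in mutant testis with 1416743_at. The groups overlapped, with the highest and the lowest array both mutant. The difference was -0.034 (95% interval -0.26 to 0.19, limma adjusted p = 1.0), and -0.097 without wildtype 7 and mutant 8. Of the other 4 Uap1 probe sets, the 2 dim ones, 1416744_at and 1416745_x_at, gave -0.023 and -0.040, and the brighter ones, with the suffix x for probes shared with other sequences, gave 0.018 and -0.0061.

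Taking the 23 probe sets of the other 6 genes as a whole, 16 were higher and 7 lower in the mutant mean, with a median difference of 0.021. Over all 45101 probe sets, 51.5% were higher and the median difference was 0.0032. Groups did not overlap for 2 of the 23, both higher in the mutant, where 1.38% of all probe sets did so in that direction. At an unadjusted p of 0.05, limma called 1 of the 23 (Gfpt2) and 1564 of all probe sets (3.47%). After adjustment it called 0 of the 23 and 0 of all (0%). With wildtype 7 and mutant 8 blocked it called 1 probe set (0.00222%), that of the serine protease gene Prss50 (Tsp50 in the annotation), and the lowest adjusted p among the other 6 genes was 0.849, shared by Gfpt2 and the dim Gfpt1 probe set 1418904_at. The upper bounds of the 95% intervals of their main probe sets ran from 0.023 for Gfpt1 to 0.38 for Pgm3. For Gfpt1 the upper bound was 0.23 on 1449268_at and 0.29 on 1418904_at, so that of the main probe set does not bound the gene.

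**Figure D2:**
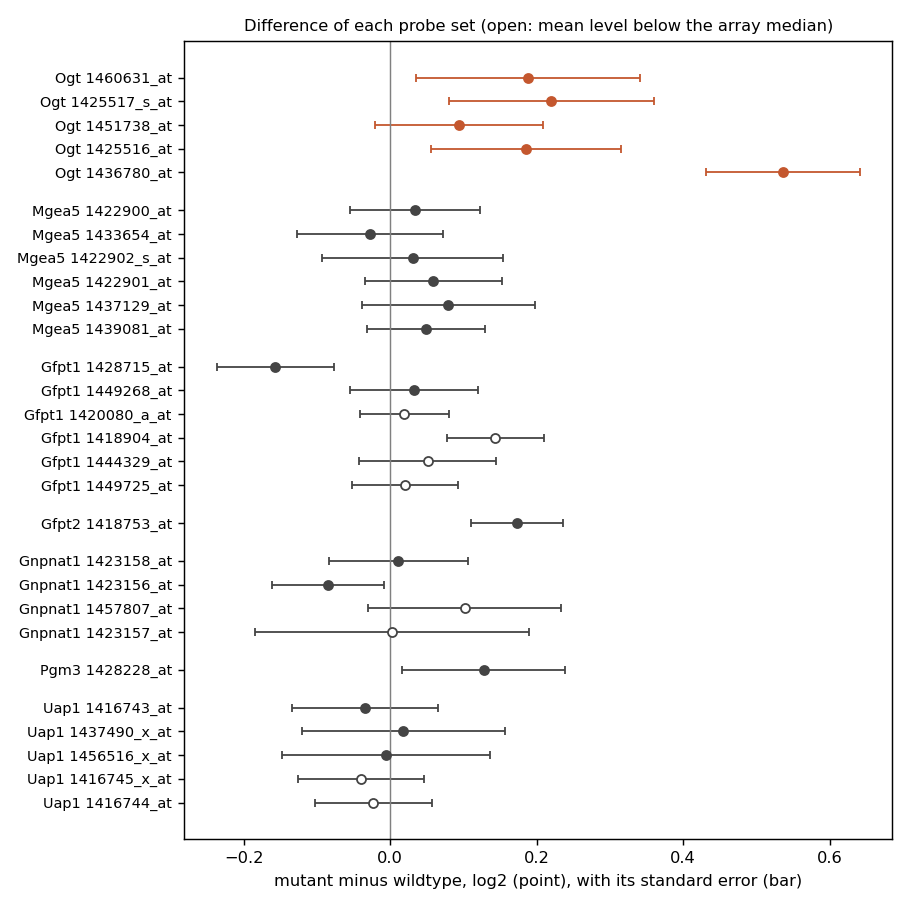
Difference in log2 level, mutant minus wildtype (point), with its standard error from the limma fit (bar) for each of the 28 probe sets, grouped by gene, with Ogt in orange and open points for a mean level below the array median. The Ogt probe set 1436780_at stands at 0.54, and the 23 probe sets of the other 6 genes lie between -0.16 and 0.17.

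Of the 28 probe sets, 4 were above and 3 below the other 6 arrays on both arrays of the pair rich in spermatid transcripts. Over all probe sets these shares were 8.60% and 10.3%, so the values that follow are not read as particular to these genes. All 3 Uap1 probe sets above the median level were higher on both wildtype 7 and mutant 8 than on any of the other 6 arrays. On 1416743_at the pair read 8.62 and 8.65 against 8.26 to 8.58, on 1437490_x_at 7.22 and 7.15 against 6.67 to 6.97, and on 1456516_x_at 7.11 and 7.15 against 6.60 to 7.03. Gfpt1 did so on 1449268_at, with 10.23 and 10.26 against 9.95 to 10.13.

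Mgea5 went the other way with 3 of its 6 probe sets. On 1422902_s_at the pair read 8.80 and 8.79 against 8.99 to 9.31 on the other arrays. On 1433654_at it read 10.20 and 10.19 against 10.32 to 10.57, and on 1422901_at 8.47 and 8.44 against 8.51 to 8.83. Another Mgea5 probe set, 1437129_at, departed by -0.26 and -0.18 from the rest of each group, while the main probe set 1422900_at departed by 0.087 and 0.22. The Mgea5 probe sets thus did not give a common direction for these arrays.

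In all, 4 of the 28 probe sets were above and 3 below the other 6 arrays on both members of the pair. These are small counts beside the 8.60% above and 10.3% below among all probe sets. The 2 departures had the same sign for 17 of the 28, against 58.8% of all probe sets. For Ogt, 4 of 5 probe sets departed upward on wildtype 7, whereas on mutant 8 only 1451738_at did, by 0.026. The pair was set apart by its values over all genes, these included, so the departures are a description.

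**Figure D3:**
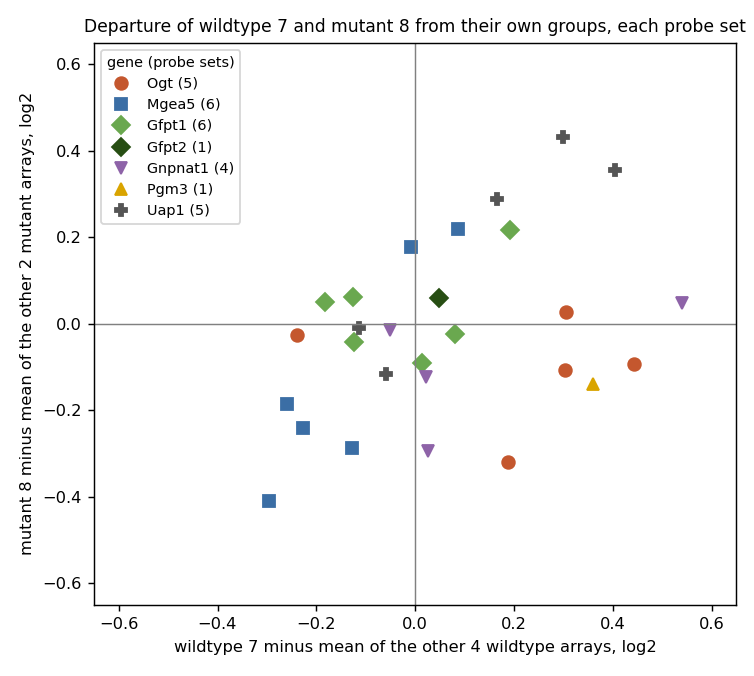
Departure of wildtype 7 from the mean of the other 4 wildtype arrays (horizontal, log2) and of mutant 8 from the mean of the other 2 mutant arrays (vertical, log2) for each of the 28 probe sets, with a symbol per gene. The 3 brighter Uap1 probe sets lie at the upper right, 4 of 6 Mgea5 probe sets at the lower left, and 4 of 5 Ogt probe sets at the right, with wildtype 7 above its group by 0.19 to 0.44.

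Genes that feed, drain or use the same sugar pool, and proteins that bind OGT or carry its mark, were then compared by lists, taking the main probe set of each gene. None of the genes in these 5 lists passed the limma test, had groups that did not overlap or had an unadjusted p under 0.05. Of 7 genes for salvage and breakdown of hexosamines, 4 were higher and 3 lower in the mutant mean, with a median difference of 0.0029. The smallest p there was that of Renbp, which codes for an N-acetylglucosamine epimerase, at 0.095 (SE 0.068, limma adjusted p = 1.0). Of 8 genes for glucose and glutamine supply, 6 were higher and 2 lower, with a median of 0.038. Slc2a3, the glucose transporter GLUT3, had the smallest p, with a difference of 0.23 (SE 0.16, limma adjusted p = 1.0).

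Of 9 genes that carry UDP-GlcNAc into the secretory pathway or use it there, 5 were higher and 4 lower, with a median of 0.038. Dpagt1, which starts the lipid-linked oligosaccharide of N-glycans, came closest to the unadjusted threshold, at 0.15 (SE 0.069, limma adjusted p = 1.0). Of 12 OGT partner genes 11 had a probe set, and Tet3 was unmatched. Of these 11, 9 were higher and 2 lower, with a median of 0.059, and the smallest p was that of Hcfc1, which OGT also cleaves, at 0.080 (SE 0.071, limma adjusted p = 1.0). Of 6 nucleoporins known to carry O-GlcNAc, 2 were higher and 4 lower, with a median of -0.031. Nup153 had the smallest p, with a difference of -0.10 (SE 0.079, limma adjusted p = 1.0). Without wildtype 7 and mutant 8, the medians were -0.042 for salvage, 0.11 for supply, 0.0074 for UDP-GlcNAc use, 0.098 for the partners and -0.021 for the nucleoporins, so that of salvage turned its sign. Beside the 51.5% higher and the median of 0.0032 over all probe sets, these counts describe small differences of either sign.

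**Figure D4:**
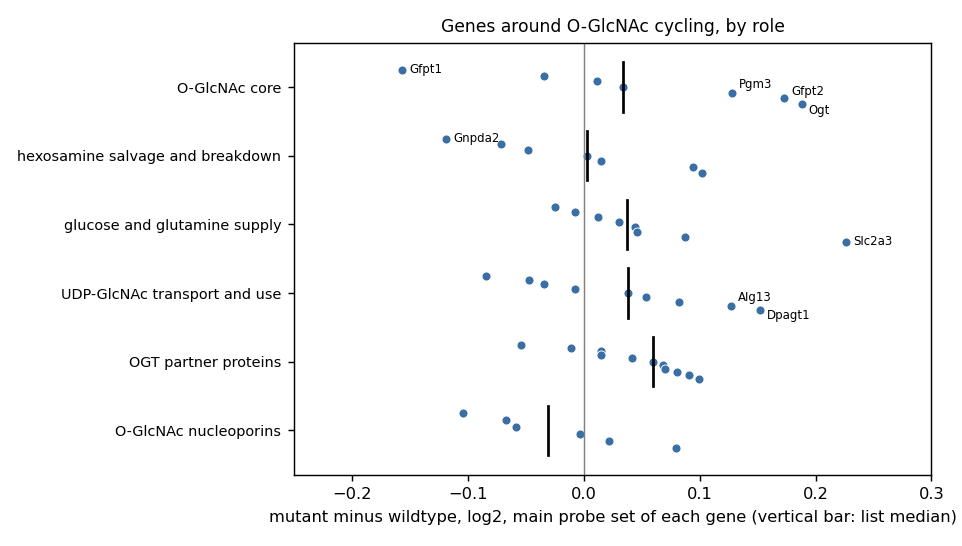
Difference in log2 level, mutant minus wildtype, for the main probe set of each gene in the O-GlcNAc core list and 5 lists around it (1 row of points per list, vertical bar at the list's median). The genes farthest from 0 are named, and the list medians lie between -0.031 for the nucleoporins and 0.059 for the OGT partners.

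Markers of testis cell types were compared between genotypes in the same way. Their median differences were 0.094 for 7 spermatogonia genes, -0.053 for 7 spermatocyte genes, -0.14 for 10 spermatid genes, all 10 of them lower in the mutant mean, and 0.084 for 8 Sertoli genes. For 5 Leydig, 5 peritubular, 5 macrophage, 5 endothelial and 5 fat cell genes they were 0.14, 0.073, 0.029, 0.00041 and -0.074. With wildtype 7 and mutant 8 as a block, the median was -0.29 for the spermatid genes, -0.29 for the fat cell genes and -0.092 for the spermatocyte genes. Without these arrays, the 10 spermatid genes differed by -0.22 (Akap4) to -0.69 (Tnp2). Of all the markers, none passed the adjusted test and Sycp1 alone had groups that did not overlap, beside 2.70% of all probe sets. Gfra1 (0.35), Sycp1 (-0.25), Fshr (0.18) and Star (0.50) had an unadjusted limma p under 0.05, beside 3.47% of all probe sets. Sycp1 and Fshr had 1 probe set each. The 3 Star probe sets gave 0.12 to 0.50. The 3 Gfra1 probe sets gave -0.043 to 0.35, and the main one was dim. The mean levels of the 4 lists that hold these 4 genes overlapped between groups. For the Sertoli genes they were 8.98 to 9.08 in wildtype and 9.05 to 9.24 in mutant testis. For the spermatogonia genes they were 7.70 to 7.91 against 7.79 to 7.98. For the spermatocyte genes they were 11.2 to 11.4 against 11.1 to 11.3, and for the Leydig genes 8.86 to 9.26 against 8.91 to 9.46. The part of cell composition in the Ogt and Gfpt2 differences was not tested.

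Along the X chromosome, Ogt was set beside the 5 nearest genes with a probe set on either side in the RefSeq gene table. These were Gjb1, Zmym3, Nono, Itgb1bp2 and Taf1 before it and Cxcr3, 8030474K03Rik, Rtl5, Ercc6l and Rps4x after it. Of the 10, 5 were higher and 5 lower in the mutant mean, with a median difference of 0.0025. Itgb1bp2, at 0.16, and 8030474K03Rik, at 0.19, had an unadjusted limma p under 0.05 (adjusted p = 1.0 for both). Itgb1bp2 alone had groups that did not overlap, on a dim probe set with a mean level of 4.96. The probe sets of Gjb1, Cxcr3 and Rtl5 were dim as well. Over all probe sets, 51.5% were higher in the mutant mean, 3.47% had an unadjusted p under 0.05 and 2.70% had groups that did not overlap.

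The probe sets whose pattern over the 8 arrays was most like that of the main Ogt probe set, by Pearson's r, were those of Ncbp2 (0.979), Huwe1 (0.976), Crebzf (0.971), Ddx26b (0.969) and Pcmtd2 (0.962). Over the 6 arrays without wildtype 7 and mutant 8 their r was 0.976, 0.976, 0.991, 0.964 and 0.973. They were picked as the highest of all probe sets of named genes, so such values describe the ranking only. Among the main probe sets of the pathway's other genes, that of Pgm3 was most like the main Ogt probe set, with r of 0.85 over 8 arrays and 0.81 over 6. For Mgea5 they were 0.60 and 0.63, for Gfpt2 0.48 and 0.62, for Gnpnat1 0.27 and 0.39, for Uap1 -0.075 and -0.59, and for Gfpt1 -0.23 and -0.34. Against 1436780_at they were 0.70 and 0.70 for Gfpt2 and 0.21 and 0.75 for Pgm3, so there Gfpt2 came first over 8 arrays and Pgm3 over 6. Since 1436780_at was chosen for its genotype difference, and the Gfpt2 groups did not overlap either, that order in part repeats the choice.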

How the data were processed

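Testis RNA of 8 samples was measured on 1 array each. Per the study's methods, the authors quantile-normalised the intensities and corrected background by RMA. The deposited table holds log2 levels of each probe set on each array, used here as deposited and without a filter. Its columns of fold changes and p-values, and the other deposited tables with limma statistics, hold the authors' own comparisons and were not used. Software versions for the arrays and the genome build of their annotation are not given in the sources used here, so no coordinates are printed. Gene names came from the table, and gene order and current names from RefSeq (GRCm38.p6).

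All 45101 probe sets, 64 controls included, were fitted in R 4.3.3 by limma 3.58.1 (functions lmFit and eBayes), genotype as the only term, two-sided, with Benjamini-Hochberg adjustment. The script was tested on simulated data. Tables and plots were made in Python 3.11.15 (pandas 2.3.3, numpy 2.4.6, matplotlib 3.10.9). Array medians lay between 6.40 and 6.45, and precision is limited by the number of arrays.

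The members, lists and tests were chosen with earlier results of these data known. Groups came from the sample titles. Every probe set of the 7 genes was followed. The main probe set of a gene is one without the suffix _x_at, _s_at or _a_at where one exists, then the brightest. From each list it names genes without overlap or with an unadjusted p under 0.05, else the gene with the smallest p. Nanos2, Hormad1, Insl3 and Plin1 had no matched probe set. Alternatives were leaving out each array, the pair of arrays as a block or left out, only probe sets above the median level, centring, repeated quantile normalisation, array weights, eBayes with a robust prior and a trend on intensity, an offset of 64 on the linear scale and other probe sets of a gene.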

Additional observations from a re-analysis of the deposited data

Results flagged for a closer look

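In 43 measures over the 5 wildtype arrays, 5 had an array far from the others by Dixon's test, where chance gives about 2.15 (1 in 20). The 3 mutant arrays are too few for it. Wildtype 7 was the outlying array in 4 of the 5. It was high on the dim Gnpnat1 probe set 1457807_at, at 5.58 with the nearest wildtype array at 5.13, and low in the mean level of the genes for UDP-GlcNAc transport and use, at 7.60 against 7.65. It was high in the mean of the spermatid markers, at 11.3 against 9.44, and of the Leydig markers, at 9.26 against 8.90. Wildtype 6 was low in the mean of the Sertoli markers, at 8.98 against 9.06. No Ogt probe set was among the 5.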

How the results depend on the processing

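No paired analysis was possible because the labels do not say which samples came from the same litter. No probe set passed the adjusted limma test in 15 of 16 alternatives, and 1 passed with wildtype 7 and mutant 8 as a block. The count at an unadjusted p of 0.05, 1564, was 2644 with the block, 2956 without both arrays, 707 among probe sets above the median level, and 1220 to 2649 when an array was left out, the highest without mutant 8, where 63.0% were higher in the mutant. The main Ogt difference, 0.19, stayed positive in all 20 alternatives, which include probe set 1436780_at, by which Ogt was chosen, at 0.54. It was 0.048 (without mutant 5) to 0.30 when an array was left out. On 1436780_at the difference was positive in all 16, at 0.35 with the offset of 64 and 0.42 to 0.64 when an array was left out. That probe set was chosen for groups that did not overlap, so leaving arrays out or adding the offset could not turn its sign.

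The sign of the small differences of the other genes depended on arrays and probe sets. Mgea5 (0.034) ran from -0.039 (without mutant 8) to 0.14 when an array was left out, with -0.0022 without mutant 5, and was -0.022 without both arrays and -0.027 on 1433654_at. Gfpt1 (-0.16) ran from -0.19 to -0.11, but was 0.14, 0.019, 0.052, 0.033 and 0.021 on 1418904_at, 1420080_a_at, 1444329_at, 1449268_at and 1449725_at. Gnpnat1 (0.011) ran from -0.050 (without wildtype 4) to 0.059, with -0.021 without mutant 5, and was -0.085 on 1423156_at. Uap1 (-0.034) ran from -0.13 to 0.064 (without mutant 5) and was 0.018 on 1437490_x_at. Gfpt2 (0.17) kept its sign in all 16 alternatives, from 0.13 to 0.20, and Pgm3 (0.13) from 0.068 to 0.25. The adjusted p of these 6 genes was 0.761 or higher in every alternative. Of the 6 list medians, those of salvage (-0.022 to 0.026), UDP-GlcNAc use (-0.019 to 0.052) and nucleoporins (-0.058 to 0.013) crossed 0 when an array was left out. That of supply ran from 0.0050 (without mutant 3) to 0.11 (without mutant 8), that of the partners from 0.026 (without mutant 3) to 0.11 (without mutant 8) and that of the core genes from 0.016 (without mutant 8) to 0.11 (without mutant 3). With the brightest probe set of each gene, whatever its suffix, the medians were 0.015 for the partners, 0.014 for supply and 0.031 for salvage. That of the nucleoporins was then -0.024, and those of UDP-GlcNAc use and the core genes did not change. The cause of these shifts was not tested.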
